A study of Mus musculus with 2 samples.

Results

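The 32 autophagy genes described here were chosen by name: the kinases, membrane proteins, conjugation enzymes, ATG8 proteins and cargo receptors of macroautophagy whose GENCODE M21 gene name was on a list of 32. All 32 were found among 55536 annotated genes, of which 22028 were protein-coding. RNA was taken from the nucleoplasmic fraction (labelled nuclear fraction in the source name) of macrophages of mouse strain C57BL/6J, grown from bone marrow and given Lipid A at 100 ng/ml for 40 min. Lipid A is the part of bacterial lipopolysaccharide that the receptor TLR4 recognises. Total RNA depleted of ribosomal RNA was sequenced in 2 libraries, biological replicates 1 and 2 of a single group, made from 1 µg and 500 ng of RNA. Both replicates carry the same donor identifier, and the age of the mice is not given in the labels, so the spread between them may be smaller than the spread between animals. Untreated cells, other times and other fractions were not analysed here. Levels are therefore described within 1 group of 2, no test of a response to Lipid A was possible, and no p-value is given.

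Macroautophagy encloses cytoplasm in a double membrane, the autophagosome, and delivers it to the lysosome. The ULK1 kinase complex starts the process, a phosphatidylinositol 3-kinase complex built around Beclin 1 marks the site, and ATG9 vesicles, ATG2 lipid-transfer proteins and WIPI proteins supply the membrane. Enzymes related to those of ubiquitin transfer then attach ATG8 proteins (the LC3 and GABARAP groups) to the membrane, where cargo receptors bind them. In macrophages this machinery also takes up intracellular bacteria, damaged mitochondria and protein aggregates.

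Before it can be attached to lipid, each ATG8 protein is cut by an ATG4 protease after a glycine close to its end. The last 60 coding bases of the 5 ATG8 genes measured here are shown because they tell the family members apart while keeping that glycine codon, which is in capitals. They were read from GENCODE M21 transcripts (mm10), 5′ to 3′, with the stop codon left off.
Map1lc3a: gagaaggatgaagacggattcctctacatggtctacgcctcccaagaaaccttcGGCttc
Map1lc3b: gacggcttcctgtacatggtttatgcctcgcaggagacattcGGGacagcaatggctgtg
Gabarap: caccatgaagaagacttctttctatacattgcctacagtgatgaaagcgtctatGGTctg
Gabarapl1: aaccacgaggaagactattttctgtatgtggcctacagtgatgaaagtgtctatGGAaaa
Gabarapl2: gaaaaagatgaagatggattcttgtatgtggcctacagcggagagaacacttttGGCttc
In Map1lc3b 5 codons followed the glycine codon, and in each of the other 4 genes 1 codon did. Across whole coding sequences, identity between family members ran from 53.1% (Map1lc3b and Gabarapl1) to 75.1% (Map1lc3a and Map1lc3b). No stretch of 31 bases was common to the coding sequences of any 2 of them. A read of that length within a coding sequence thus could not belong to 2 members of the family. Genes outside the family can still share such stretches. Over all models and either strand, the share found in other genes was 25.2% for Gabarapl1, 15.3% for Gabarapl2 and 8.64% for Map1lc3b. It was 0% for Map1lc3a and Gabarap.

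A second set of sequences shows what a retained-intron model is. This annotation class marks a transcript model that runs on into sequence that other models of the gene splice out. Each line gives 40 bases read from the retained-intron model itself, on the strand of the gene (GENCODE M21, mm10). At a 5′ splice site 15 bases of exon precede 25 of intron, with the first 6 intron bases in capitals. At a 3′ splice site 25 bases of intron precede 15 of exon, with the last 2 intron bases in capitals. They were picked from genes with over 50% in such models by TPM or by expected counts, after those shares were known.
Becn1-210, 5′ site of the intron at chr11:101294148-101294969, minus strand: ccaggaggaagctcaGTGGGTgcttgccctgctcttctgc
Becn1-210, 3′ site of the same intron: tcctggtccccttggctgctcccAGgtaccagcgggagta
Becn1-210 and Becn1-202, 5′ site of the intron at chr11:101295625-101296257, minus strand: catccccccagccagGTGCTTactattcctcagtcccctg
Becn1-210 and Becn1-202, 3′ site of the same intron: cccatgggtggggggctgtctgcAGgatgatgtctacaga
Uvrag-202, 5′ site of the intron at chr7:98939970-98979635, minus strand: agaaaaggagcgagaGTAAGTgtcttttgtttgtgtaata
Uvrag-206, 5′ site of the intron at chr7:98888593-98906491, minus strand: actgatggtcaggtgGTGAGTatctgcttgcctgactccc
Pik3r4-211, 3′ site of the intron at chr9:105678321-105682184, plus strand: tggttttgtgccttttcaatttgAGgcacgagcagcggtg
Map1lc3b-202, 5′ site of the intron at chr8:121593546-121595985, plus strand: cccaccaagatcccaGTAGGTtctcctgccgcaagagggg
Map1lc3b-202, 3′ site of the same intron: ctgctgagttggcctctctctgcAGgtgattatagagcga
The Becn1-210 and Map1lc3b-202 models hold these introns whole, whereas both Uvrag models run over a 5′ site and Pik3r4-211 over a 3′ site without reaching the other end. Of the 73 retained-intron models of the autophagy genes, 20 held a whole intron of a coding model, 51 ran over a splice site without holding a whole intron, and 2 did neither.

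Levels are given as TPM, a share of all transcripts in a library that is corrected for the length of the models. RNA of nearly all of the genes was detected: 29 of the 32 had 1 TPM or more in both replicates, beside 40.0% of all protein-coding genes. Depth was 19630046 (replicate 1) and 18434601 (replicate 2) expected counts in all. The median autophagy gene stood at 10.4 and 8.09 TPM (9.24 ± 1.63, SD, n = 2), and the median detected protein-coding gene at 8.64 and 6.12 TPM. On the scale log2(TPM + 1) the gap between those medians was 0.24 and 0.34 (0.29 ± 0.07), and it was 0.08 in the FASTQ-derived tables. As a set the genes were thus widely detected as RNA, at levels near those of a typical detected gene. In such bulk RNA, fewer cells expressing a gene and less RNA per cell cannot be told apart. All 12 macrophage markers were detected (means of 13.5 to 2253 TPM), as were 2 of 34 markers of other blood and stromal cells, Kdr and Gp9, while 8 of the 34 were at 0 in both replicates. Mitochondrial genes took 4.79% and 4.50% of the counts.

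**Figure D1:**
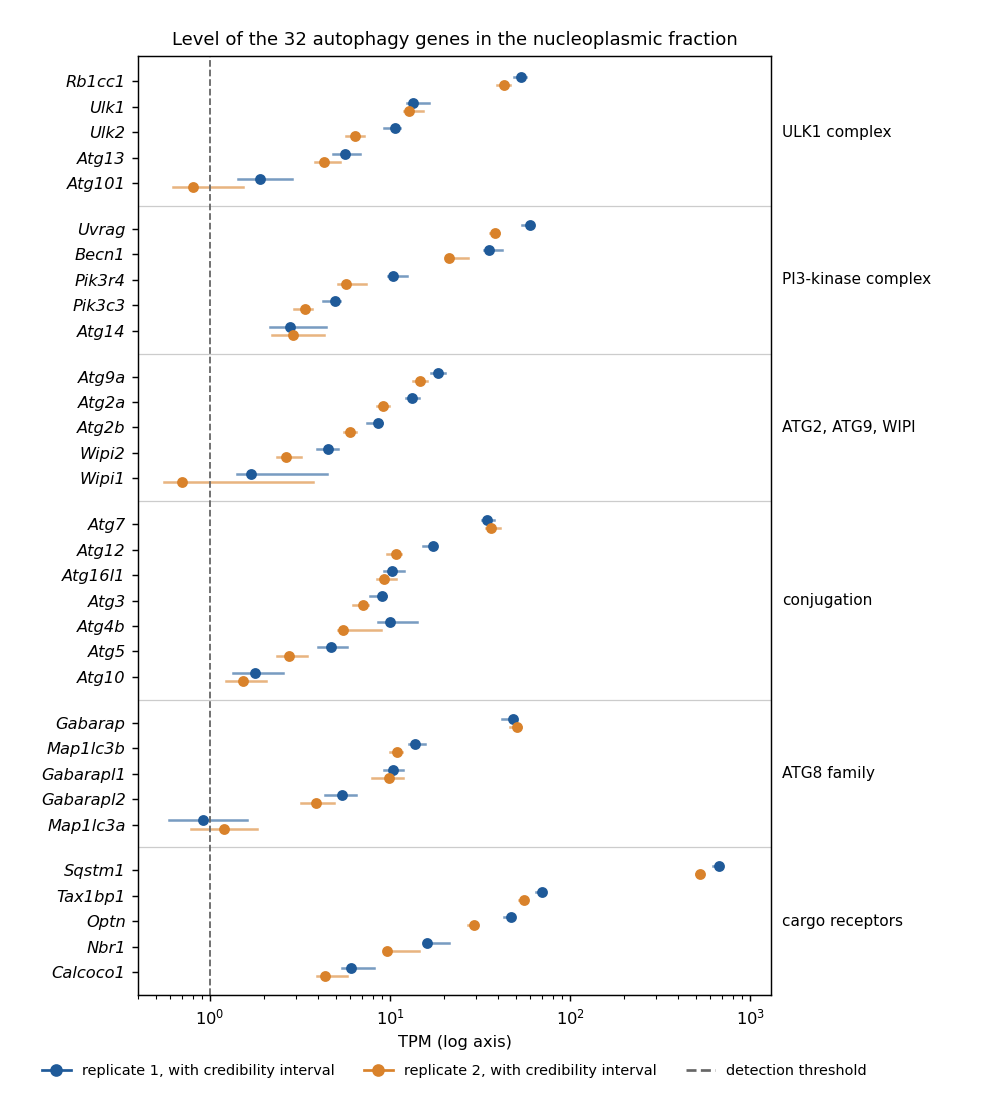
TPM of the 32 autophagy genes (log axis) in replicate 1 (blue) and replicate 2 (orange), in 6 role groups. Horizontal lines are the deposited credibility intervals and the dashed line marks 1 TPM; Sqstm1 lies at 669 and 530.0 TPM, and 3 genes have a replicate below the dashed line.

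Cargo receptors had the highest levels, with a group median of 38.0 ± 12.5 TPM. Sqstm1 encodes p62, which links ubiquitinated cargo to ATG8 proteins. It lies on chromosome 11 (mm10, 50199366 to 50210827, minus strand, ENSMUSG00000015837) and had 669 and 530.0 TPM from 16353 and 18468 counts. Its mean of 599 ± 98.2 TPM was above that of 99.6% of detected protein-coding genes, and it made up 54.9% and 55.8% of the TPM of all 32 genes together. The deposited credibility interval in replicate 1, 620.4 to 652 TPM, lies below the TPM itself, because it is centred on another estimate, the posterior mean of 636 TPM. Tax1bp1, a receptor with a ubiquitin-binding end, came next at 69.9 and 55.2 TPM, and these 2 replicate ranges did not overlap with those of Sqstm1 or of Gabarap, the next gene in the order. Optn, or optineurin, which binds ubiquitin and TBK1, had 46.9 and 29.2 TPM. Nbr1, a relative of p62, had 16.0 and 9.65 TPM. Calcoco1, a receptor for the endoplasmic reticulum, was the lowest of the 5 at 6.04 and 4.36 TPM (5.20 ± 1.19).

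Within the ATG8 family the order was led by Gabarap. It had 47.9 and 51.0 TPM (49.4 ± 2.18) and supplied 61.1% and 66.4% of the family's TPM. Map1lc3b, the LC3 gene most used as an autophagosome marker, had 13.8 and 10.9 TPM (12.4 ± 2.09). Gabarapl1 had 10.4 and 9.81 TPM (10.1 ± 0.40), and Gabarapl2 had 5.41 and 3.89 TPM (4.65 ± 1.07). Map1lc3a was not detected by the threshold, with 0.91 and 1.19 TPM from 15 and 22 counts. The 5 genes thus spanned a wide range, with the 2 replicates of Gabarap above every replicate of the other 4. Gabarap stood 3.46-fold and 4.69-fold above Map1lc3b (4.07 ± 0.87, n = 2), and by FASTQ-derived TPM 3.09-fold and 4.74-fold. The order of Map1lc3b and Gabarapl1 depended on the models counted. The ratio of Map1lc3b to Gabarapl1 was 1.33 and 1.11 over all models, and 0.76 and 0.62 over coding models alone. By FASTQ-derived TPM it was 1.41 and 0.88, so the 2 replicates fell on either side of 1.

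Among the ULK1 complex genes, Rb1cc1 was highest. It encodes FIP200, the scaffold of the complex, and had 53.2 and 43.0 TPM (48.1 ± 7.27). The kinase gene Ulk1 had 13.4 and 12.8 TPM and its relative Ulk2 10.6 and 6.43. Atg13, which joins the kinase to the scaffold, had 5.61 and 4.32 TPM. Its partner Atg101 was not detected by the threshold, with 1.89 and 0.81 TPM from 39 and 24 counts. The scaffold thus exceeded both kinases and their partners in each replicate, and the group median was 8.52 ± 2.95 TPM.

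The genes of the phosphatidylinositol 3-kinase complex had a group median of 8.04 ± 3.35 TPM. Uvrag, a subunit that takes the place of Atg14 in the complex acting on endosomes and late autophagosomes, was highest at 59.8 and 38.4 TPM (49.1 ± 15.1). Becn1, encoding Beclin 1, had 35.4 and 21.3 TPM (28.3 ± 9.9985). Pik3r4, the regulatory subunit VPS15, had 10.4 and 5.67 TPM, and Pik3c3, the catalytic subunit VPS34, had 4.96 and 3.38. Atg14, which directs the complex to the forming autophagosome, was lowest at 2.79 and 2.90 TPM (2.85 ± 0.08). Uvrag was above Atg14 in each replicate, but most of its TPM lay outside coding models, as described below. Over coding models alone Uvrag had 7.41 and 5.37 TPM and Atg14 1.67 and 1.32.

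Of the genes that supply membrane, Atg9a was highest. It encodes the transmembrane protein of ATG9 vesicles and had 18.6 and 14.6 TPM (16.6 ± 2.81). The lipid-transfer genes Atg2a and Atg2b had 13.3 and 9.10 TPM and 8.63 and 5.99 TPM. Wipi2, which binds the lipid made by the 3-kinase and recruits ATG16L1, had 4.55 and 2.65 TPM. Wipi1 was not detected by the threshold, with 1.69 and 0.70 TPM from 80 and 42 counts. The group median was 7.31 ± 1.87 TPM, and Wipi1 and Wipi2 lay below Atg2a, Atg2b and Atg9a in both replicates.

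In the conjugation system Atg7 was highest. It encodes the E1-like enzyme that activates both ubiquitin-like proteins of the pathway and had 34.5 and 36.5 TPM (35.5 ± 1.38). Atg12, the ubiquitin-like protein joined to ATG5, had 17.3 and 10.9 TPM. Atg16l1, which places the conjugate on the membrane, had 10.3 and 9.22 TPM. The ATG8 protease gene Atg4b had 10.04 and 5.51 TPM, and the E2-like enzyme gene Atg3 9.02 and 7.08. Atg5 had 4.72 and 2.75 TPM. Atg10, the E2-like enzyme for ATG12, was lowest at 1.78 and 1.52 TPM (1.65 ± 0.18) from 48 and 59 counts. The activating enzyme was thus above its downstream enzymes in each replicate, and the group median was 8.56 ± 2.09 TPM.

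Many neighbours in the order of mean levels were close. Of the 31 neighbouring pairs, 27 had overlapping replicate ranges, which include the lower TPM of nearly all genes in replicate 2. Within each replicate separately, 16 of the 31 pairs stood in the same order. The 4 pairs with ranges apart were Sqstm1 over Tax1bp1, Tax1bp1 over Gabarap, Becn1 over Atg9a and Atg14 over Atg10. The same 3 genes, Map1lc3a, Atg101 and Wipi1, fell short of 1 TPM in at least 1 replicate of the FASTQ-derived tables too. Between those tables and the alignment-based ones, 0 of the 29 detected genes differed over 2-fold the same way in both replicates, beside 8.04% of detected protein-coding genes. The FASTQ-derived mean was the lower for 26 of the 29, beside 87.6% of detected protein-coding genes, and lay more than 1 SD from the alignment-based mean for 21, beside 73.0%.

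Replicate 2 had the lower TPM for 28 of the 32 genes, and 91.8% of detected protein-coding genes were lower in it too. The shift was seen in TPM and not in expected counts. From counts scaled by TMM (edgeR), the median log2 ratio of replicate 2 to replicate 1 was 0.06 over the autophagy genes, 14 lower and 18 higher, and 0.02 over protein-coding genes. With scaling by totals alone the medians were 0.04 and 0.0024. It ran from -0.80 for Wipi1 to 0.63 for Gabarap. None of the 32 (0) passed a log2 ratio of 1 either way, beside 2.81% of protein-coding genes. Across all genes tested, the biological coefficient of variation between the 2 libraries was 0.18. RNA input differed between the replicates and cannot be told apart from replicate.

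**Figure D2:**
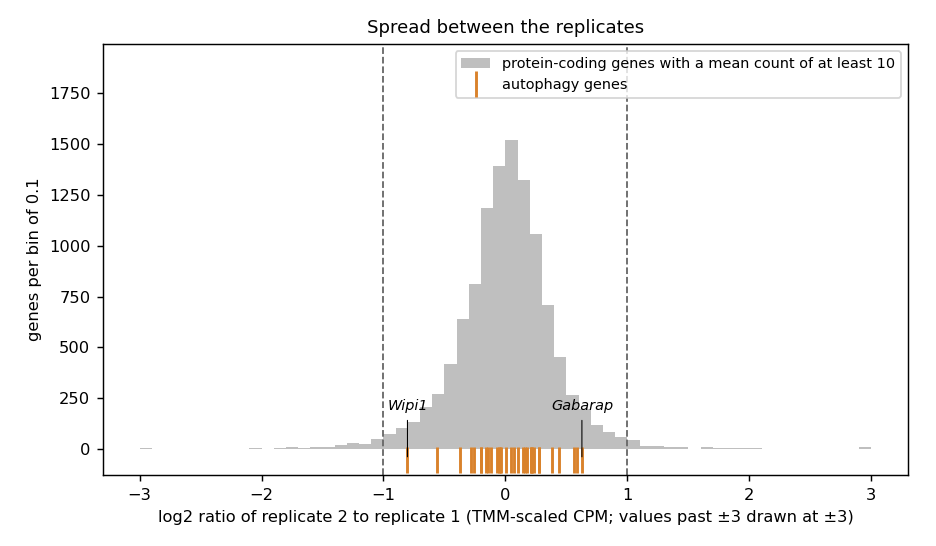
Histogram (grey) of the log2 ratio of replicate 2 to replicate 1 for protein-coding genes, from TMM-scaled counts, with the 32 autophagy genes as orange ticks. All ticks lie between -0.80 (Wipi1) and 0.63 (Gabarap), inside the dashed lines at -1 and 1.

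The models behind these levels differed greatly between genes. The 32 genes have 229 annotated models, 107 of them coding and 73 retained-intron models, which belong to 22 of the genes. Retained-intron models took 43.1% and 39.5% of the genes' summed TPM (41.3 ± 2.53%). Over all protein-coding genes except mitochondrial ones the share was 24.97% and 24.5%. Sqstm1 weighed heavily in the first value, and without it the share was 32.8% and 31.5%. By expected counts, in which short models weigh less, the share was 22.2% for the autophagy genes and 16.9% for all. By FASTQ-derived TPM it was 47.4% and 25.9%. Without Sqstm1 the autophagy genes had 27.1% by counts and 28.9% by FASTQ-derived TPM, so most of the gap by the latter came from that gene. Among genes that have a retained-intron model, the 22 autophagy genes, Sqstm1 included, had 44.4% by TPM and 24.5% by counts. All 9119 such protein-coding genes had 35.1% and 24.4%. By counts the 2 sets thus differed by less than the spread between replicates. TPM divides by model length, so a short model with few reads takes a large part of a gene's TPM.

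**Figure D3:**
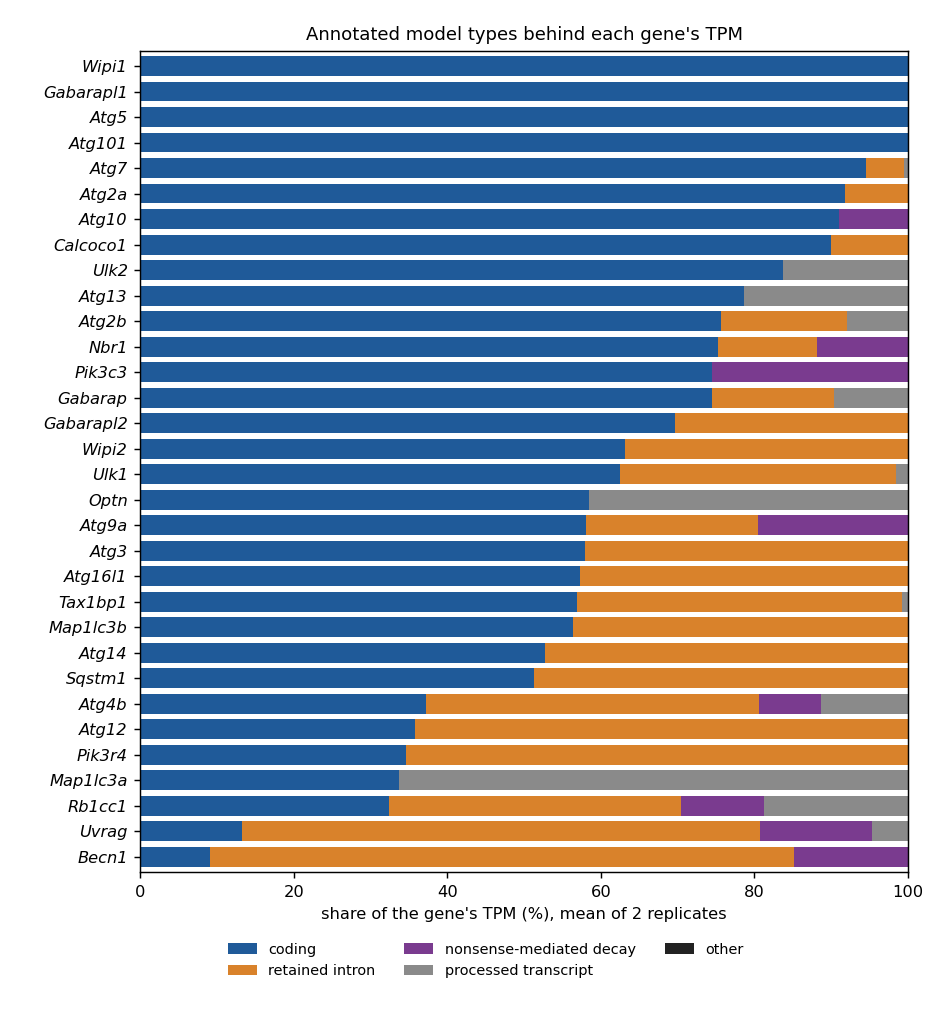
Share of each gene's TPM (%, mean of 2 replicates) by annotated model type, sorted by the coding share. Becn1 and Uvrag have the smallest coding shares, and Gabarapl1, Atg5, Atg101 and Wipi1 are coding almost throughout.

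Over 50% of the TPM lay in retained-intron models in both replicates for 4 of the 22 genes that have such a model, Becn1, Uvrag, Pik3r4 and Atg12, beside 12.6% of detected protein-coding genes with such a model. Becn1 had 73.8% and 78.6% in them, Uvrag 65.7% and 69.4%, Pik3r4 67.8% and 63.0%, and Atg12 69.3% and 59.2%. The first 3 belong to the phosphatidylinositol 3-kinase complex, whose 5 genes together had 64.9% and 67.7%. In that group Atg14 had 40.1% and 54.3%, and Pik3c3 has no retained-intron model. The share was 46.8% and 42.7% over the receptors, and 18.7% and 19.0% over the ATG8 family. The order of these groups depended on the measure. By FASTQ-derived TPM the 3-kinase group had 36.6% and 33.8% and the receptors 55.7% and 56.6%. All genes with such a model had 37.3% and 37.6%. Coding models of the 3-kinase group then took 13.0% and 10.9%, beside 48.7% and 46.2% for all genes with a retained-intron model. Models annotated as processed transcripts took 38.5% and 44.0% of the group, beside 9.18% and 11.2%. By counts the 3-kinase group had 57.7% and 58.8%, the receptors 19.1% and 17.4%. Sqstm1 weighed heavily in the receptor shares, with 669 and 530.0 TPM against 69.9 and 55.2 for Tax1bp1, the next receptor. By FASTQ-derived TPM Sqstm1 had 63.7% and 63.0% in such models, Tax1bp1 32.9% and 32.1%, Nbr1 37.4% and 51.3%, and Calcoco1 42.3% and 29.1%. Optn has no such model. The receptor values therefore mostly describe Sqstm1. At the low end, Atg7 had 8.08% and 1.78% and Atg2a 9.70% and 6.81%.

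Which genes passed 50% depended on the measure. By expected counts 4 of 22 passed in both replicates, beside 10.6% of detected protein-coding genes with such a model: Becn1 with 70.8% and 73.9%, Uvrag with 60.5% and 59.98%, Pik3r4 with 52.5% and 59.1%, and Map1lc3b with 55.6% and 56.8%. By FASTQ-derived TPM 5 of 22 passed, beside 19.0% of those genes: Atg12, Sqstm1, Atg4b, Atg3 and Ulk1. Becn1 then had 51.5% and 37.7%, Uvrag 31.4% and 32.1%, and Pik3r4 44.9% and 49.3%. Coding models by that measure took 9.36% and 7.92% of Becn1, 5.92% and 4.85% of Uvrag, but 55.1% and 50.7% of Pik3r4. No gene (0 of 22) passed by all 3 measures. Sqstm1 showed the widest split, with 51.6% and 45.9% by TPM, 63.7% and 63.0% by FASTQ-derived TPM, but 15.7% and 12.4% by counts. Its retained-intron models are 457, 582 and 585 bases long, and its main coding model, Sqstm1-202, is 2037 bases long.

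**Figure D4:**
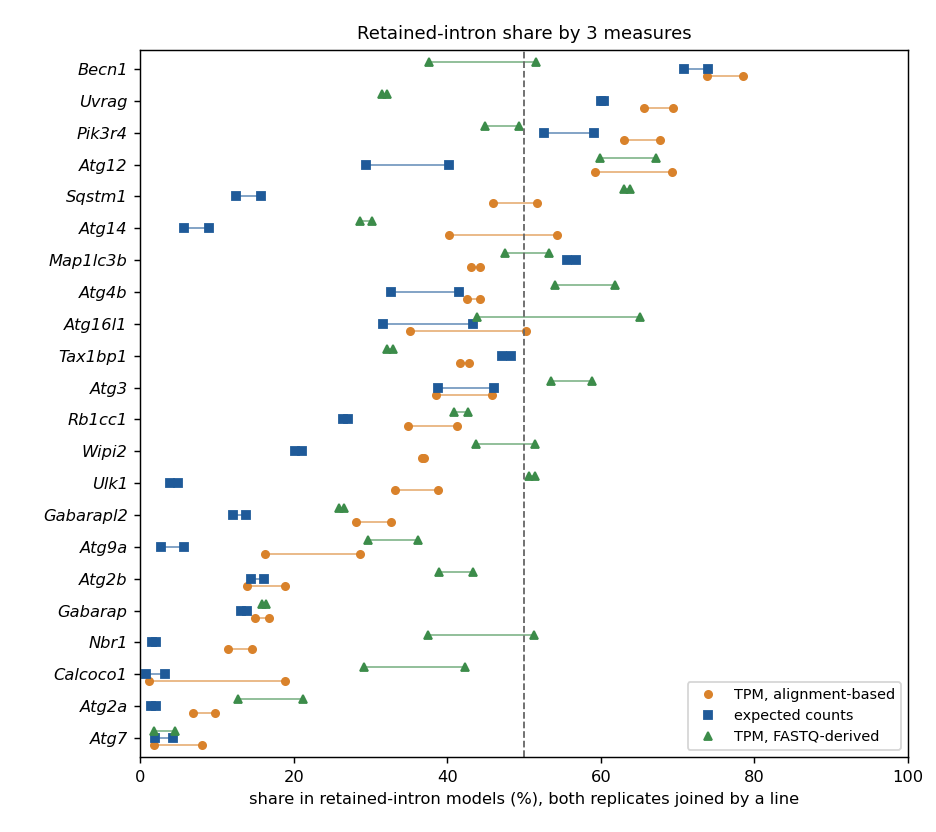
Share of each gene in retained-intron models (%) by alignment-based TPM (orange circles), expected counts (blue squares) and FASTQ-derived TPM (green triangles), both replicates joined by a line, for the 22 genes with such a model. No gene has all its points to the right of the dashed line at 50%; Sqstm1 spans 12.4% to 63.7%.

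Becn1 lies on chromosome 11 (mm10, 101285952 to 101302286, minus strand, ENSMUSG00000035086). Its largest models were Becn1-202, with 19.7% and 28.7% of its TPM, and Becn1-210, with 24.0% and 23.1%. Both are long models of 11 and 10 exons that hold the 633-base intron printed above, and Becn1-210 also holds the 822-base one. Of their bases, 10.6% and 31.8% lie outside the exons of coding models, so most of their sequence is shared with coding models. Its main coding model, Becn1-205, took 7.52% and 7.58%, and all coding models together 3.70 and 1.61 TPM. By coding TPM Becn1 was 26th of the 32 genes, and by total TPM 8th. On the opposite strand Cntd1 shares 43.9% of Becn1's exon bases, with 0.57 and 0.38 TPM of its own. Whether reads were counted by strand is not given in the sources used here, so reads of these 2 genes may not be separable.

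Uvrag lies on chromosome 7 (mm10, 98885021 to 99141141, minus strand, ENSMUSG00000035354). Uvrag-202, which ends in the intron whose 5′ site is printed above, took 46.0% and 47.7% of its TPM, and Uvrag-206, which ends in a later intron, 19.7% and 21.7%. The coding model Uvrag-201 came after them, with 12.4% and 13.99%, in both replicates. Uvrag was 4th of the 32 genes by total TPM and 14th by coding TPM. An antisense gene, Gm45187, shares 17.6% of its exon bases and had 2.71 and 2.10 TPM. Such overlaps were not limited to Becn1 and Uvrag. Gm29253, on the same strand, shares 31.8% of the exon bases of Atg9a. On the opposite strand, 1700101I11Rik shares 28.3% of those of Gabarapl1, and Mrnip 17.3% of those of Sqstm1. None of these partners exceeded 1.03 TPM in either replicate.

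Pik3r4 (chromosome 9, mm10, 105642978 to 105687657, plus strand) had 38.8% and 25.2% of its TPM in Pik3r4-211, a model of 1358 bases, and 32.2% and 26.1% in the coding model Pik3r4-201. By expected counts Pik3r4-211 took 14.6% and 9.33%. Map1lc3b (chromosome 8, mm10, 121590361 to 121598760, plus strand) had 43.1% and 44.2% of its TPM in Map1lc3b-202, which keeps the 2440-base intron printed above. The rest of its TPM lay in coding models.

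**Figure D5:**
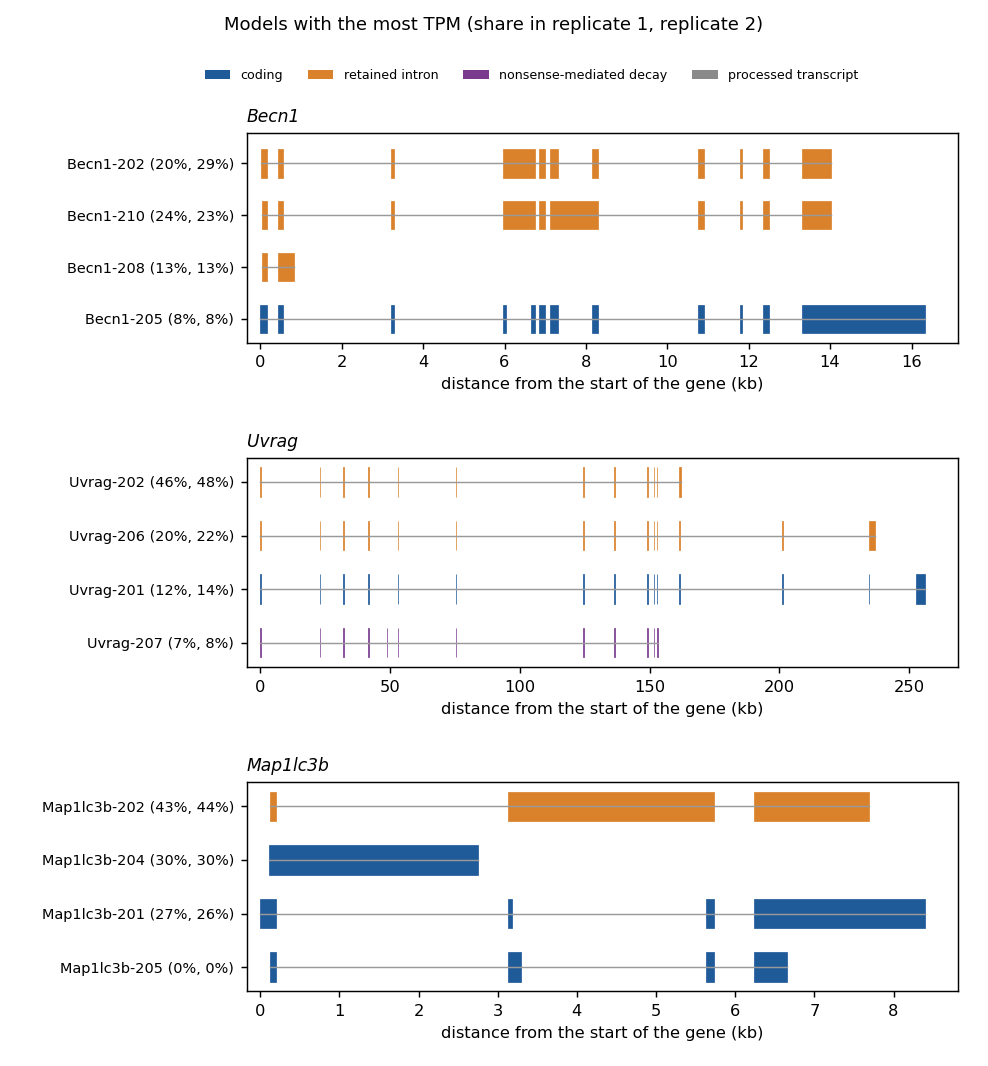
Exons (boxes) of 4 models each of Becn1, Uvrag and Map1lc3b, those with the most TPM and always the largest coding model (for Becn1 in place of others above it), by distance from the start of the gene (kb), coloured by model type, with the share of the gene's TPM in each replicate beside the name. The leading Becn1 models join exons that the coding model keeps apart, and the leading Uvrag models end before the last exon of the coding model.

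Counting coding models alone, 29 of the 32 genes had at least 1 TPM in both replicates, beside 36.4% of protein-coding genes. Under 50% of TPM lay in coding models in both replicates for 6 of the 29 detected genes, Becn1, Uvrag, Pik3r4, Atg12, Rb1cc1 and Atg4b, beside 17.7% of detected protein-coding genes. Rb1cc1 had 53.2 and 43.0 TPM in all but 17.0 and 14.1 in coding models. By the mean share, the largest single model was coding for 23 of the 29 detected genes, beside 84.5% of detected protein-coding genes. It was a retained-intron model for 5 (beside 9.85%) and a processed transcript for 1 (beside 3.42%). It was the same model in both replicates for 23 (beside 80.1%), and the same in the FASTQ-derived tables for 19 (beside 67.6%). Sqstm1 and Gabarap remained high when only coding models were counted: they had 324 and 287 TPM, and 34.4 and 39.3 TPM, the first and second of the 32 genes by the mean. In replicate 1 Tax1bp1, with 40.4 and 30.9 coding TPM, was above Gabarap. Atg7 moved from 7th to 4th, with 31.5 and 35.7 TPM.

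Further autophagy genes were detected as widely. Of 35 other genes of the pathway, 32 were detected, with a median of 8.51 ± 2.78 TPM. The highest were Vmp1, which scrambles lipids at the endoplasmic reticulum, at 778 and 373 TPM, and Tecpr1, a tether between autophagosome and lysosome, at 195 and 115 TPM. Bnip3, Atg9b and Calcoco2 were not detected, with 0.81 and 1.13, 0.17 and 0.09, and 0 TPM in both replicates. Of 20 upstream regulators 19 were detected. The 2 highest were C9orf72 at 91.2 and 56.3 TPM and Tbk1, the kinase that phosphorylates optineurin, at 82.2 and 63.6, in opposite order in the 2 replicates. Prkaa2, a catalytic subunit of AMP-activated kinase, had 0.07 TPM in both replicates. Retained-intron models took 12.3% and 11.5% of the TPM of the other autophagy genes and 29.3% and 23.0% of that of the regulators. Vmp1 weighed heavily in the first value, as 0% of its 778 and 373 TPM lay in such models. Tecpr1, the next highest, had 53.2% and 40.5% in them. The share of the other autophagy genes is thus not directly comparable with that of the 32 genes, in which Sqstm1 weighed heavily.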

How the data were processed

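Total RNA-seq of 2 replicates was analysed. Per the labels, the genome build was mm10, and per the text notes deposited with the tables the annotation was GENCODE M21. The aligner and the quantifiers, like any use of strand, remain not given in the sources used here. The authors' alignment-based gene and transcript tables give, per the file headers, expected counts and TPM, the latter scaled to a fixed total over all features. The deposited credibility bounds are a signal on the TPM scale and cover 1 library's counting and read assignment. The authors' FASTQ-derived transcript tables give estimated counts and TPM, summed here by gene.

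Detection was 1 TPM or more in both replicates. Expected counts were rounded for edgeR 4.0.16 (R 4.3.3): TMM scaling, prior count 2, mean count of at least 10. The script for the ratio was checked on simulated counts with known fold changes. Other steps used Python 3.11.15. Model shares and introns came from GENCODE M21. A model ran over a splice site when an exon covered at least 15 exon bases and 25 intron bases there. With 1 group, no test between conditions was made. Depth was 18434601 to 19630046 expected counts, and the credibility intervals cover only counting and read assignment within 1 library.

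Genes were named by a rule: full values for the highest and lowest gene of each role group, each undetected gene, each over 50% in retained-intron models, each past a log2 replicate ratio of 1 or 2-fold off in the FASTQ-derived tables (none), and the ATG8 family, plus the 2 highest and the undetected genes of the other lists. Others are given by their 2 values. The members, lists, role groups and rule were chosen with earlier results of these data known. The splice-site rule and sequence excerpts were chosen after the values were seen. Of 36 other autophagy genes listed, 35 were found. The alternatives tried are in the closing section.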

Additional observations from a re-analysis of the deposited data

How the results depend on the processing

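No paired analysis was possible because there is 1 group. With n = 2, a value that leaves out a replicate lies within 1 SD of the mean by construction, so it says nothing about stability; these values ran from 30 to 31 genes detected (29 in both, 29 by FASTQ-derived TPM, 21 at 5 TPM, 32 at 0.1 TPM and 32 with TPM rescaled over protein-coding genes), 0.24 to 0.34 for the log2 gap to the median detected gene, and 39.5% to 43.1% for the retained-intron share. Role group medians then ran, in TPM, from 6.43 to 10.6 (ULK1 complex), 5.67 to 10.4 (3-kinase complex), 5.99 to 8.63 (membrane), 7.08 to 10.04 (conjugation), 9.81 to 10.4 (ATG8) and 29.2 to 46.9 (receptors). The log2 gap of 0.29 was 0.20 with a pseudocount of 5, 2.95 against all protein-coding genes, 0.39 for detected members only, 0.0795 by FASTQ-derived TPM and 0.91 with TPM rescaled over protein-coding genes. In the rescaled setting the threshold of 1 was applied to the rescaled values, which are larger. That is a looser rule than 1 TPM before rescaling, both for the 32 genes detected and for the genes compared against. The retained-intron share of 41.3% was 22.2% by expected counts, 47.4% by FASTQ-derived TPM, 44.4% over genes with such a model, 20.6% as the median of single shares and 32.1% without Sqstm1. Also without Sqstm1, it was 27.1% by expected counts and 28.9% by FASTQ-derived TPM. The median replicate ratio of 0.06 turned negative, to -0.39, with TPM + 1, where all protein-coding genes moved alike (median -0.37), and to -0.0088 with FASTQ-derived counts; other scalings moved it by less than 0.1, a tolerance set by hand because a ratio of 2 libraries has no spread of its own. By FASTQ-derived TPM the role medians were 5.12 (ULK1 complex), 3.62 (3-kinase complex), 3.88 (membrane), 5.41 (conjugation), 5.27 (ATG8) and 32.8 (receptors). Rescaled over protein-coding genes they were 38.9, 36.4, 33.8, 39.6, 47.9 and 174, so the receptors had the highest median under each of these settings. Over all 32 genes, the undetected ones included, the number whose largest model is not coding rose from 7 to 12 by FASTQ-derived TPM. The same share over all protein-coding genes was not computed by that measure, so the rise cannot be called particular to these genes. By FASTQ-derived TPM 21 of the 29 detected genes moved by more than 1 SD, beside 73.0% of detected protein-coding genes, and 26 were lower, beside 87.6%, so the shift was general. Causes were not tested. Depth limits the lowest genes most: Map1lc3a, Atg101 and Wipi1 rest on 15 to 80 counts a replicate.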
